A study of Mus musculus with 4 samples.

Results

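The 10 genes described here encode nuclear and lysosomal markers of cellular senescence: the deacetylase gene Sirt1, the lamin genes Lmnb1, Lmnb2 and Lmna, the high mobility group genes Hmgb1, Hmgb2, Hmga1 and Hmga2, the retinoblastoma gene Rb1 and the lysosomal beta-galactosidase gene Glb1. They were chosen by name from a table of 53465 gene identifiers, and all 10 were in it. Polyadenylated RNA was sequenced from 4 libraries labelled MLE-12, the name of a mouse line of immortalized lung epithelium that resembles alveolar type 2 cells. Replicates 1 and 2 were controls, and replicates 2 and 3 of the treated group had received 1-nitropyrene, a nitrated polycyclic hydrocarbon of diesel exhaust, at 5 µM for 12 h. The study's title concerns epithelial senescence in lung fibrosis caused by this compound. The line was made from mouse lung tumours driven by a viral large T antigen, a protein known to bind the Rb and p53 proteins, and all 4 libraries share this background. Whether the libraries stem from separate cultures was not in the labels, so p-values measure only the spread between these libraries, which may be technical.

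Senescence is a lasting arrest of the cell cycle with a reorganised nucleus. Lamins form the meshwork under the inner nuclear membrane, and loss of lamin B1 is a widely used senescence marker. HMGB proteins bend DNA and are depleted from senescent nuclei, whereas HMGA proteins, which bind AT-rich DNA, can accumulate in the heterochromatin foci of senescent cells. The Rb protein restrains E2F transcription factors and so holds the arrest, Sirt1 is a deacetylase that uses NAD and opposes senescence, and the product of Glb1 is the enzyme behind the beta-galactosidase stain of senescent cells.

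Depth was between 6908055 and 10773733 counts per library. Loci of ribosomal RNA (those annotated as such and a few added by name) took 44.3% to 46.1% of them. The protocols name polyadenylated RNA, and the source of this ribosomal share was not tested. Of 21865 protein-coding genes 12039 (55.1%) had 0 counts in all 4 libraries. All 10 epithelial markers looked for, among them Krt8, Krt18, Cdh1 and Epcam, and 6 of 10 alveolar type 2 markers, among them Sftpb and Nkx2-1, were listed at 0 in every library. Of the other type 2 markers Abca3 was at 8.02 to 10 CPM and Etv5 at 4.23 to 6.34 CPM. Genes that most cells use, such as Trp53 and Gusb, were also listed at 0, so a 0 here need not mean that a gene was silent. Counts were seen for 9 of 10 fibroblast markers, whose summed level was 10.7 and 4.87 CPM (counts scaled to a common library total with TMM factors) in control and 3.22 and 1.06 CPM in treated libraries, with Thy1 at 0. For macrophages and leukocytes 3 of 8 markers and for endothelium 4 of 7 had any count, with summed levels of at most 0.286 CPM in any library and Cd68, Adgre1, Tek and Vwf at 0. The fibroblast sum was lower in the treated libraries, as were some of the genes below, and its part in their values was not tested.

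Of the 10 genes, 8 passed the filter on low counts and were tested, at mean levels between 5.04 CPM for Hmga1 and 261 CPM for Hmgb1. With 1-nitropyrene Sirt1 rose 1.57-fold and Hmgb1 1.13-fold, and no tested marker was called lower. Lmnb1, Lmna, Hmgb2, Hmga1, Hmga2 and Rb1 did not pass the test, in which a gene was called at a Benjamini-Hochberg adjusted p under 0.05 over 7738 genes (edgeR's quasi-likelihood test). Across all tested genes 24.5% were called, 13.2% higher and 11.2% lower, so that 2 of 8 is the background share. Without adjustment, p was under 0.05 for 4 markers on the higher and 2 on the lower side, and DESeq2 and limma-voom each called 2 higher and 0 lower. For 7 of the 8 the groups did not overlap (treated above control for Sirt1, Lmna, Hmgb1 and Rb1, below it for Lmnb1, Hmga1 and Hmga2), as in 59.2% of all tested genes. The 8 had a median log2 fold change of 0.09, beside -0.0035 over all tested genes.

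**Figure D1:**
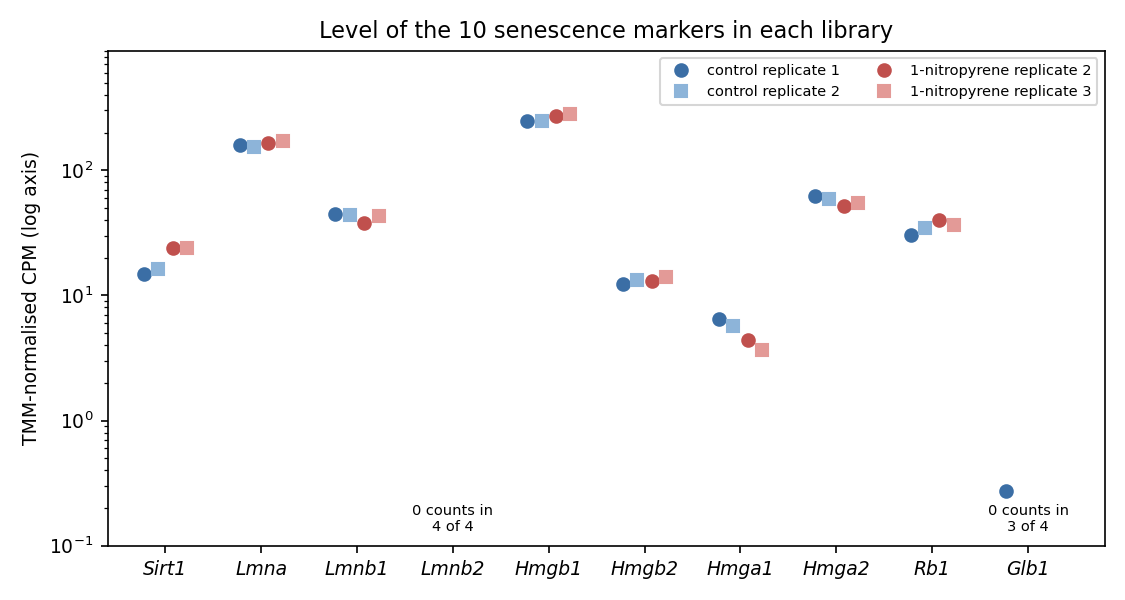
TMM-normalised CPM (log axis) of each of the 10 marker genes in the 4 libraries, with 1 point per library: circles and squares tell the replicates apart, blue is control and red 1-nitropyrene. Sirt1 and Hmga1 show the widest gaps between the groups, Lmnb2 has 0 counts in all 4 libraries and Glb1 in 3 of 4.

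Sirt1 (GRCm38 chromosome 10, 63319005 to 63381704, minus strand) stood at 14.8 CPM in control replicate 1, 16.2 in control replicate 2, 24 in 1-nitropyrene replicate 2 and 24.1 in 1-nitropyrene replicate 3. The treated libraries were nearly equal and both stood above the controls (values below keep this order of libraries). The means were 15.5 ± 0.98 and 24 ± 0.0394 CPM (SD, n = 2 libraries per group here and below), which is 0.65 in log2 fold change (SE 0.14; adjusted p = 4.53e-05, edgeR). In bulk RNA a change in the share of cells and a change of RNA per cell cannot be told apart. As a ratio of treated to control, the 95% interval ran from 1.30 to 1.89. The call was present in all 18 alternative settings, with adjusted p-values up to 0.0230, the highest without control replicate 1, and DESeq2 gave 0.0174. Sirt1 shared 65 bp of exon with the opposite-strand gene Gm16145, which had 0 counts, and no annotated transcript was near-identical to it.

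The promoter of Sirt1 is shown because this gene moved most among those called. RefSeq's table of starts (GRCm38.p6) gives it 1 promoter, here from 250 bases to 1 base before the start, chr10:63339036-63339285 on the minus strand, with the word CACGTG in capitals.
Sirt1: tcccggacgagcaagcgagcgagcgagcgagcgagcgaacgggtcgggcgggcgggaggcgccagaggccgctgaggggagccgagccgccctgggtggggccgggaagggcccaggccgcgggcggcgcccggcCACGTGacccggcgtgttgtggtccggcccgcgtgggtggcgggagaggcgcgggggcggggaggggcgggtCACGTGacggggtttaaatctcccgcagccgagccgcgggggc
The 2 matches begin 115 and 43 bases before the start. This RefSeq start lies within the span of Sirt1 given above, which reaches 63381704 at its upstream end. CACGTG, the palindromic E-box word, was found in 7.15% of 32851 promoters of 300 bases from 250 before to 50 after the start, and was looked for after the sequence had been seen. The E2F words TTTCCCGC and TTTGGCGC (both strands), found in 1.07% and 0.514% of promoters, were in none of the 12 promoters listed for 8 of the genes, and CCAAT, found in 37.4%, was not in that of Sirt1. CACGTG was not particular to Sirt1: the second promoter listed for Hmgb1 had it 69 bases and that of Glb1 48 bases before the start. That second promoter had no CCAAT and is not shown. CCAAT was also in promoters of Hmgb2 (4 matches) and Lmna (1 match), neither of them called. The first promoter listed for Hmgb1, the other gene called, is chr5:149053058-149053307 on the minus strand, with CCAAT (the word of the CCAAT box) in capitals.
Hmgb1: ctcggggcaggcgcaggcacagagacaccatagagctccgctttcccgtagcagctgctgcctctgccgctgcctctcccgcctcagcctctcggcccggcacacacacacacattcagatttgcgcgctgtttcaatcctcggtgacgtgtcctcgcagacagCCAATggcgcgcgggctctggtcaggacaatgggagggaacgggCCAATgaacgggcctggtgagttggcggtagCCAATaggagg
CCAAT begins 86, 42 and 11 bases before this start, which also lies within the annotated span of its gene. A match describes the letters only. RefSeq promoters of Lmnb1 and Rb1 were not used here.

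Among lamins, Lmna, which encodes lamins A and C, was the most abundant per length, Lmnb1 came next and Lmnb2 was not detected. In CPM per kilobase of annotated exon, Lmna had 26.8 in control and 28.9 with 1-nitropyrene, and Lmnb1 15 and 13.7. Lmnb1 (chromosome 18, 56707813 to 56753424, plus strand) was at 44.8 and 44.1 CPM without and at 37.8 and 43.3 CPM with 1-nitropyrene. The 2 treated libraries differed by more than the gap between 1-nitropyrene replicate 3 and the controls, although neither reached a control. The means were 44.5 ± 0.523 and 40.6 ± 3.91 CPM, which is -0.14 in log2 fold change (SE 0.09; adjusted p = 0.315), and the 95% interval of the ratio, 0.801 to 1.03, included a ratio of 1. Its size depended on single libraries: -0.04 without 1-nitropyrene replicate 2 and -0.24 without 1-nitropyrene replicate 3, with no call in either.

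Lmna (chromosome 3, 88480147 to 88509956, minus strand) was at 160 and 153 CPM without and at 165 and 173 CPM with 1-nitropyrene. The treated libraries were the higher ones by a small margin. The log2 change was 0.10 (SE 0.05; adjusted p = 0.122; ratio interval 1.00 to 1.15). Lmnb2 (chromosome 10, 80901203 to 80918245, minus strand) was listed at 0 in all 4 libraries. By counting error alone this allows up to 0.278 to 0.434 CPM, the worth of 3 counts, depending on the library. Since many widely used genes were also at 0, whether depth accounts for it was not tested, and no response of Lmnb2 can be given.

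Hmgb1 and Hmgb2 encode paralogous chromatin proteins with HMG boxes. Hmgb1 (chromosome 5, 149046702 to 149184489, minus strand) was the most abundant of the 10 genes in CPM and per length, with 247 and 245 CPM without and 272 and 282 CPM with 1-nitropyrene. The treated libraries were both above the controls, and the gap exceeded the spread within either group. Its log2 change was 0.17 (SE 0.04; adjusted p = 0.00049, edgeR), a ratio of 1.13 with a 95% interval of 1.06 to 1.19, and the call was present in all 18 alternatives (adjusted p-values up to 0.0325, the highest with DESeq2). Hmgb2 (chromosome 8, 57511907 to 57515999, plus strand) was at 12.3 and 13.3 CPM without and at 13 and 14 CPM with 1-nitropyrene. The groups overlapped (log2 change 0.08 with SE 0.17, adjusted p = 0.778; ratio interval 0.841 to 1.33).

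Both HMGB genes have processed pseudogenes, intronless copies made by reverse transcription, that can take up their reads. A search of the member transcripts against all GENCODE M21 transcripts (at least 95% identity over at least 200 bases) found 74 other loci for Hmgb1, 30 of them with counts, and 5 for Hmgb2, 2 with counts. The Hmgb1 copies together had 2467 and 1555 counts without and 2245 and 2077 counts with 1-nitropyrene, between 86.6% and 94.8% of the count of Hmgb1 itself in the same library. For Hmgb2 the largest copy was Gm4739 (chromosome 10, 26107789 to 26108421, plus strand, 1 exon of 633 bases), which matches the whole coding sequence of Hmgb2, 633 bases with the stop codon, except at 2 bases. These are C555T and C606A, counted from 1 at the first base of the start codon, with the base of Hmgb2 first and that of Gm4739 last.

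The stretches around the 2 differences show how little sequence separates the gene from its copy. They are coding bases 525 to 585 and 576 to 633, from GENCODE M21 transcripts, with the differing base in capitals.
Hmgb2, first stretch: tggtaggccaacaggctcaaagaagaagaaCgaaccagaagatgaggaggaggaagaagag
Gm4739, first stretch: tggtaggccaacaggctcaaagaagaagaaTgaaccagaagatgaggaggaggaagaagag
Hmgb2, second stretch: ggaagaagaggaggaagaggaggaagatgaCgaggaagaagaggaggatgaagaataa
Gm4739, second stretch: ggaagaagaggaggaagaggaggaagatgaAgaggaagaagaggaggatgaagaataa

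Gm4739 had more counts than Hmgb2 in every library, 433 and 258 without and 245 and 250 with 1-nitropyrene, beside 134, 93, 113 and 119 for Hmgb2. Per kilobase of exon this was 684, 408, 387 and 395 counts for the copy and 44.6, 31, 37.6 and 39.6 counts for the gene, whose exons span 3003 bases. Gm4739 fell from 38.4 ± 2.01 to 28.8 ± 0.851 CPM (edgeR log2 change -0.43 with SE 0.11, adjusted p = 0.000528). Its groups did not overlap, but the call ended without control replicate 1 (adjusted p = 0.0721). The fold changes of gene and copy were of opposite sign, a difference that was not tested. Hmgb2 held 23.6% and 26.5% of their joint counts without and 31.6% and 32.2% with 1-nitropyrene.

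When the copies were summed into the genes, a setting chosen after seeing the data, Hmgb2 was at 52.2 and 50.3 CPM without and at 41.1 and 43.3 CPM with 1-nitropyrene. The treated libraries were now both below the controls, with a log2 change of -0.28 (SE 0.09; adjusted p = 0.00923, edgeR) and a ratio interval of 0.727 to 0.928. The direction of Hmgb2 thus turned when all counts of its copies were added. Which reads match both loci was not tested. For Hmgb1 the same step gave 474 and 468 CPM without and 530 and 526 CPM with the compound. Its log2 fold change hardly moved, at 0.16 (SE 0.03, adjusted p = 1.47e-05).

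**Figure D2:**
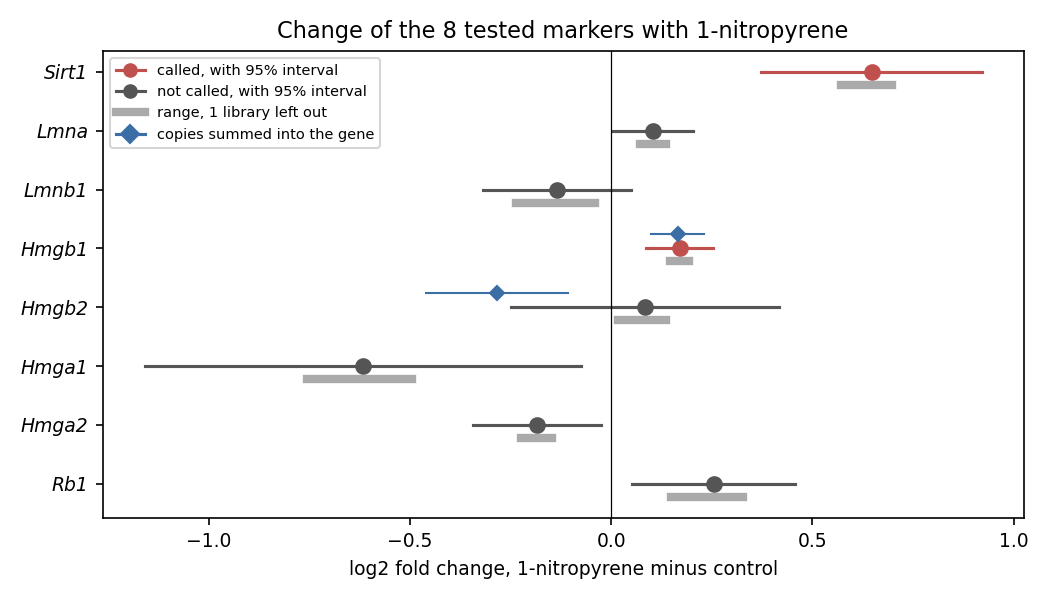
Log2 fold change of each of the 8 tested markers (horizontal axis, 1-nitropyrene minus control) with its 95% interval, red where called and grey where not. Grey bars give the range with 1 library left out and blue diamonds the value with near-identical copies summed in: Hmgb2 moves from 0.08 to -0.28, and Hmgb1 from 0.17 to 0.16.

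Hmga1 and Hmga2 encode small proteins that bind the minor groove of AT-rich DNA through AT-hooks. Hmga2 (chromosome 10, 120361275 to 120476469, minus strand), a gene best known from embryonic and tumour cells, was at 61.8 and 59.1 CPM without and at 51.9 and 54.8 CPM with 1-nitropyrene. Hmga1 (chromosome 17, 27556497 to 27563674, plus strand) was at 6.43 and 5.73 CPM without and at 4.37 and 3.64 CPM with 1-nitropyrene, from 70, 40, 38 and 31 counts. For both genes the treated libraries were the lower ones and the groups did not overlap, but neither passed the test. Hmga2 had a log2 change of -0.18 (SE 0.08; adjusted p = 0.082; ratio interval 0.788 to 0.982), and Hmga1 one of -0.62 (SE 0.28, adjusted p = 0.0891; ratio interval 0.448 to 0.949). Hmga2 was called lower in 2 alternatives: adjusted p was 0.0364 among genes averaging 10 CPM or more and 0.0362 without scaling factors. DESeq2 gave Hmga2 an adjusted p of 0.368 and Hmga1 none.

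Per kilobase of exon Hmga2 stood above Hmga1 in both groups, with 8.93 against 2.86 CPM in control and 7.88 against 1.88 CPM with 1-nitropyrene. A retrocopy of Hmga1, Hmga1b (chromosome 11, 120762794 to 120764419, plus strand), is 99.8% identical to it over 1602 bases and had 0 counts in all 4 libraries. How reads matching both were counted is unknown here, and the level of Hmga1 is uncertain. Hmga2 shared 140 bp of exon with the opposite-strand gene 1700006J14Rik, at most 7 counts in any library, and Hmga1 102 bp with AI413582, at most 3 counts.

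Rb1 (chromosome 14, 73183673 to 73325822, minus strand), the pocket protein gene that restrains E2F factors, was at 30.4 and 34.5 CPM without and at 40.1 and 36.4 CPM with 1-nitropyrene. The treated libraries were higher, by less than 2 CPM between the nearest libraries of the 2 groups. The means were 32.5 ± 2.89 and 38.3 ± 2.62 CPM, which is 0.25 in log2 fold change (SE 0.10; adjusted p = 0.0545; ratio interval 1.04 to 1.37). Rb1 was called higher without 1-nitropyrene replicate 3 (adjusted p = 0.0413) and among protein-coding genes only (adjusted p = 0.0496), while without control replicate 1 its log2 fold change was 0.15 (adjusted p = 0.553). It shared 488 bp of exon with Rcbtb2 and 408 bp with the lysophosphatidic acid receptor gene Lpar6, both on the opposite strand. These had 58 to 85 and 65 to 103 counts per library beside 241 to 349 for Rb1, and the sources used here do not say whether the counting used strand.

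Glb1 (chromosome 9, 114401076 to 114474898, plus strand) had 3 counts in control replicate 1 and 0 in the other 3 libraries. The 95% Poisson interval of those 3 counts was 0.619 to 8.77, for counting error only. Both groups were at or under the floor, so that no fold is given, and a change of Glb1 was not detectable in these counts. Most other lysosomal genes were as scarce. Of 29 listed hydrolases and lysosomal proteins, Glb1 included, 9 had 0 counts in all libraries and 6 were tested, with 0 called in either direction by edgeR, DESeq2 or limma-voom. Without adjustment 1 had a p under 0.05: Lamp1, a membrane glycoprotein of lysosomes, averaged 189 ± 4.16 CPM in the controls and 176 ± 6.67 CPM after treatment (log2 change -0.10 with SE 0.05, adjusted p = 0.129).

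Pairs of genes within a library give shares that no scaling factor can move. Lmnb1 made up 21.9% and 22.3% of the joint counts of Lmnb1 and Lmna without and 18.6% and 20.1% with 1-nitropyrene. The treated shares were both lower, while the exact (Clopper-Pearson) 95% intervals of all 4 libraries overlapped: those of the treated libraries reached up to 20.5% and 22%, and those of the controls began at 20.2% and 20.1%. Hmga2 made up 90.6% and 91.2% of the counts of Hmga1 and Hmga2 without and 92.2% and 93.8% with 1-nitropyrene. Hmgb2 made up 4.75% and 5.15% of the counts of Hmgb1 and Hmgb2 without and 4.55% and 4.73% with 1-nitropyrene. In both HMG pairs the intervals of all 4 libraries overlapped. Lmnb1 held all counts of the 2 B-type lamins, with a lower bound of at least 98.8% in each library, for counting error only. A 0 for Lmnb2 need not mean that it was silent, so this share describes the counts and not the RNA of the cells.

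**Figure D3:**
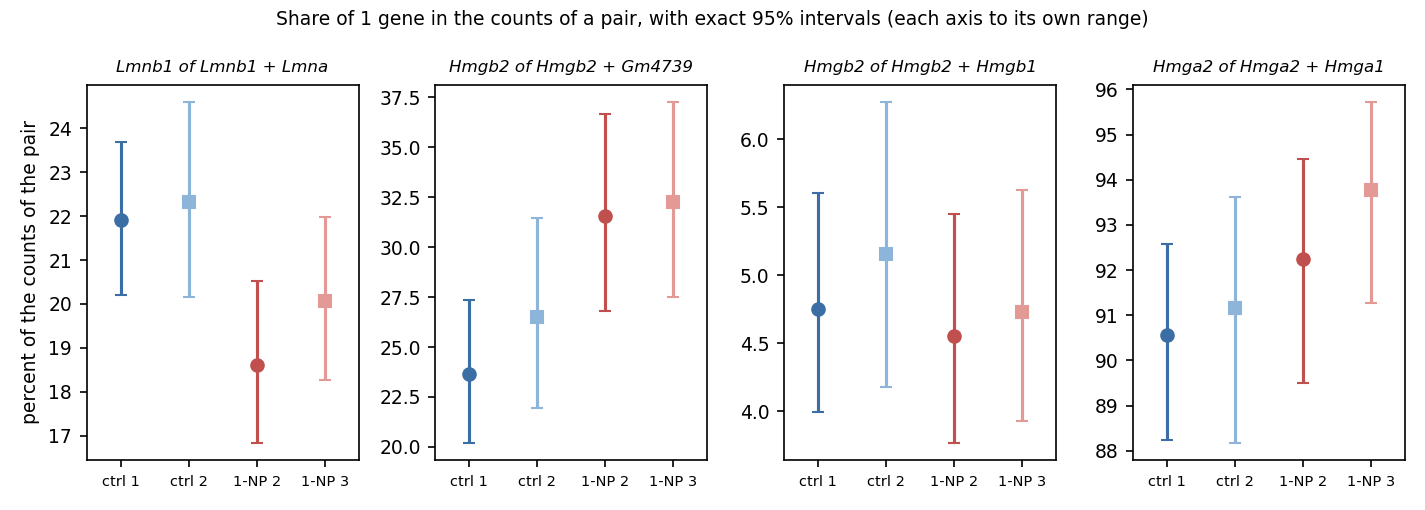
Percent of the joint counts of a pair that fell to the first gene, 1 panel per pair, each axis to its own range, with exact 95% intervals for counting error and 1 point per library (control blue, 1-nitropyrene red). In both treated libraries the share of Lmnb1 beside Lmna is lower, and those of Hmgb2 beside Gm4739 and of Hmga2 beside Hmga1 are higher, than in both controls. The intervals overlap in every pair of libraries except control replicate 1 and 1-nitropyrene replicate 3 for Hmgb2 beside Gm4739.

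Genes that work with the markers were described by lists, with no test of a list. The calls in each list, the lysosomal one above included, stand beside 13.2% higher and 11.2% lower among all tested genes. In the sirtuin family 3 of 7 genes were tested and only Sirt1 was called. Sirt2 was at 2.26 ± 0.568 and 3.67 ± 0.795 CPM (adjusted p = 0.197), the mitochondrial Sirt3 had 1 count in total, and Sirt4 and Sirt6 had 0. Among 9 tested genes of NAD supply and Sirt1 regulation 1 rose and 2 fell. Nampt, the rate-limiting enzyme of NAD salvage, rose from 151 ± 8.21 to 184 ± 7.01 CPM (log2 change 0.29 with SE 0.05, adjusted p = 1.18e-07), a call present in all alternatives. Nadk, which converts NAD to NADP, fell from 132 ± 5.37 to 119 ± 1.63 CPM (adjusted p = 0.0224), and Hic1, a repressor known to act on the Sirt1 promoter, from 22.7 ± 0.745 to 17.8 ± 0.519 CPM (adjusted p = 0.0394). The call of Nadk ended when control replicate 1 (adjusted p = 0.37) or 1-nitropyrene replicate 3 (0.0979) was left out, and that of Hic1 without any 1 of the 4 libraries (adjusted p-values of 0.0828 to 0.28). DESeq2 called neither.

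Around the lamins, 11 of 17 genes of the lamina and envelope were tested, with 2 higher and 1 lower (median log2 fold change -0.05). Tor1a, an ATPase of the nuclear envelope and endoplasmic reticulum, rose from 19 ± 0.71 to 27.6 ± 1.33 CPM (log2 change 0.55 with SE 0.13), and Tmpo, the gene of the LAP2 proteins that bind lamins, from 79.2 ± 2.6 to 90.5 ± 2.97 CPM (0.20, SE 0.07). Banf1, which links DNA to LEM-domain proteins, fell from 134 ± 2.06 to 114 ± 5.49 CPM (-0.23, SE 0.06). The calls of Tor1a and Banf1 were present in all alternatives, whereas that of Tmpo ended in DESeq2 (adjusted p = 0.215) and on leaving out control replicate 1 (0.272) or 1-nitropyrene replicate 2 (0.141). The lamin B receptor Lbr and emerin (Emd) had 3 and 11 counts in total and were not tested, chosen for mention after their values were seen. Of 6 tested genes of lamin processing, Fnta, the shared subunit of the farnesyl and geranylgeranyl transferases, fell from 15 ± 2.09 to 10.1 ± 2.64 CPM (log2 change -0.54 with SE 0.18, adjusted p = 0.0126) and 0 rose (1 at an unadjusted p under 0.05, and 0 in DESeq2 and limma-voom). Without 1-nitropyrene replicate 3 the call of Fnta ended (log2 fold change -0.30, adjusted p = 0.354), as it did without control replicate 2 (adjusted p = 0.168).

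In the HMG family 10 of 16 listed genes were tested, with Hmgb1 higher and Hmgn3 lower, and the median log2 fold change was -0.16. Hmgn3, a nucleosome-binding protein, had 15 and 16 counts without and 6 and 4 with 1-nitropyrene (log2 change -1.56 with SE 0.61, adjusted p = 0.043). Leaving out any 1 library ended this call (adjusted p-values of 0.0623 to 0.306). The paralogues Hmgb3 and Hmgn1 were not called.

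Of 14 genes of senescence-associated heterochromatin foci (histone chaperones, HP1 proteins and histone methyltransferases) 12 were tested, 5 were lower and 1 higher, beside 11.2% lower and 13.2% higher among all tested genes, and the median log2 fold change was -0.14. Ubn1, a subunit of the HIRA chaperone complex, fell from 142 ± 8.89 to 104 ± 1.61 CPM (log2 change -0.44 with SE 0.06, adjusted p = 6.08e-13). The 3 HP1 genes were all lower: Cbx1 fell from 204 ± 8.68 to 161 ± 12.1 CPM (-0.34, SE 0.05), Cbx3 from 214 ± 3.77 to 188 ± 12.2 CPM (-0.18, SE 0.05) and Cbx5 from 55.5 ± 0.127 to 47.3 ± 0.478 CPM (-0.23, SE 0.09). The calls of Ubn1 and Cbx1 were present in all alternatives. Cbx5 and the chaperone Asf1a (-0.24, SE 0.07), with Atrx, a chromatin remodeller that rose from 75.7 ± 5.44 to 87.5 ± 0.962 CPM (0.20, SE 0.07), were named after their values were seen. Without 1-nitropyrene replicate 3 the count of lower genes was 2, without control replicate 2 it was 3, and in DESeq2 it was 2. The call of Cbx3 ended without 1-nitropyrene replicate 3 (adjusted p = 0.115), that of Asf1a without it (adjusted p = 0.0667) or control replicate 2 (adjusted p = 0.105), that of Cbx5 without any 1 library (adjusted p-values of 0.0775 to 0.196), and that of Atrx without 1-nitropyrene replicate 2 (adjusted p = 0.097), 1-nitropyrene replicate 3 (adjusted p = 0.0501) or control replicate 2 (adjusted p = 0.304).

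Of 20 genes of pocket proteins, E2F factors and their complexes, Rb1 included, 16 were tested, with 2 higher and 0 lower. The shares among all tested genes were 13.2% higher and 11.2% lower. In this list 0 were lower also at an unadjusted p under 0.05, in DESeq2 and in limma-voom. The histone-binding partners of Rb rose: Rbbp7 from 882 ± 7.13 to 1030 ± 8.85 CPM (log2 change 0.22 with SE 0.03, adjusted p = 7.28e-14) and Rbbp4 from 183 ± 1.72 to 209 ± 3.45 CPM (0.19, SE 0.05, adjusted p = 0.000428). Both calls were present in all alternatives. The other pocket protein genes Rbl1 and Rbl2 and the activator E2F genes E2f1, E2f2 and E2f3 were not called.

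The list around the arrest itself held genes of arrest and genes of dividing cells, and many of both were missing from the counts. Of 11 listed genes 6 had 0 counts in all libraries and 4 were tested. Those at 0 were Cdkn1a, Cdkn2a, Cdkn2b and Trp53, and, of dividing cells, Mki67 and Ccnb1. Cdkn1b, the inhibitor p27, rose from 16.8 ± 1.21 to 25.1 ± 0.847 CPM (log2 change 0.60 with SE 0.14, adjusted p = 0.000106), a call present in all alternatives. Ccna2, cyclin A, fell from 46.8 ± 0.593 to 38.5 ± 3.02 CPM (-0.28, SE 0.09, adjusted p = 0.0144) and Top2a, topoisomerase II of dividing cells, rose from 160 ± 9.91 to 174 ± 7.01 CPM (0.13, SE 0.05, adjusted p = 0.0471). Neither call was kept by DESeq2 (adjusted p = 0.185 and 0.348), and that of Top2a also ended in limma-voom (0.0724) and with RLE (0.0576), upper quartile (0.0858) or no scaling factors (0.154). Without 1-nitropyrene replicate 3 both ended (adjusted p = 0.192 and 0.325), as they did without control replicate 1 (adjusted p = 0.157 and 0.663), and that of Ccna2 also ended without control replicate 2 (adjusted p = 0.0542).

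**Figure D4:**
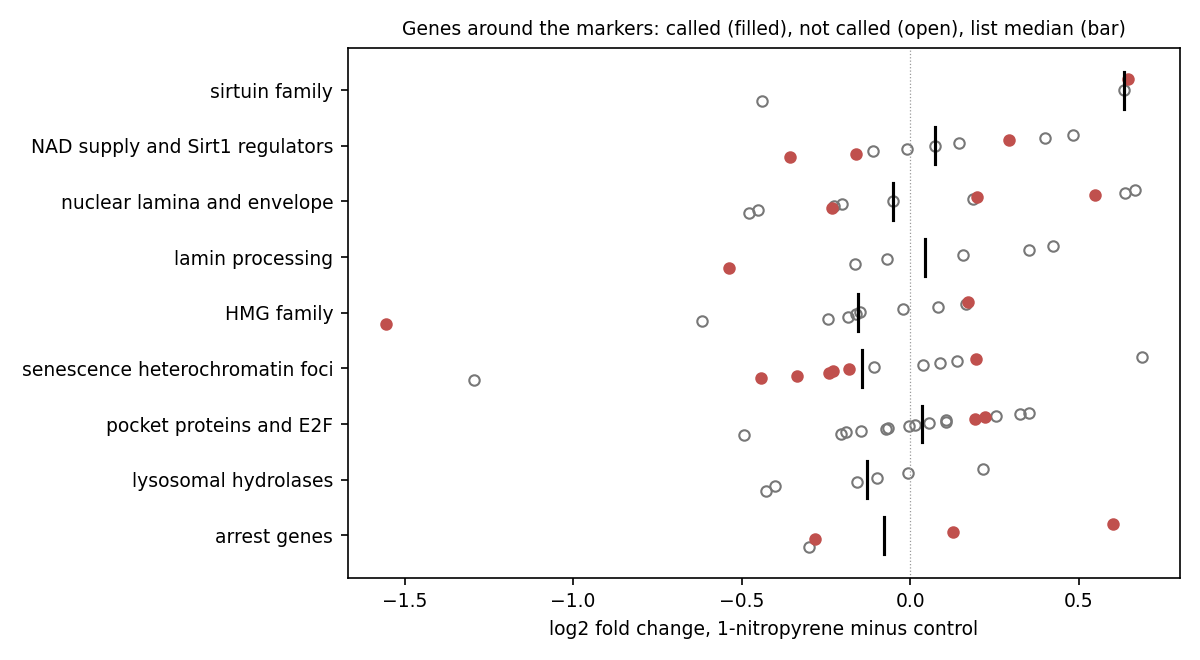
Log2 fold change (horizontal axis) of the tested genes of 9 lists, 1 point per gene, filled red where called at an adjusted p under 0.05 and open where not, with the list median as a bar. The heterochromatin list has 5 called genes to the left of 0 and 1 to the right, and the lysosomal list has none called.

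The values of the markers were set beside the GC content of their longest transcripts. Across tested protein-coding genes the median log2 fold change went from 0.04 in the lowest of 5 equal classes of GC content (median 39.6%) to -0.04 in the highest class (57.6%), with 158 higher and 88 lower calls in the former and 188 and 236 in the latter. Hmgb2, Hmgb1, Rb1 and Sirt1 had 38.7%, 40.1%, 41.2% and 44% GC and lay on the higher side. Hmga2, Lmnb1 and Hmga1 had 45.7%, 53.3% and 61.4% and lay on the lower side, and Lmna, with 53.1%, on the higher side. The part of GC content in these values was not tested.

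**Figure D5:**
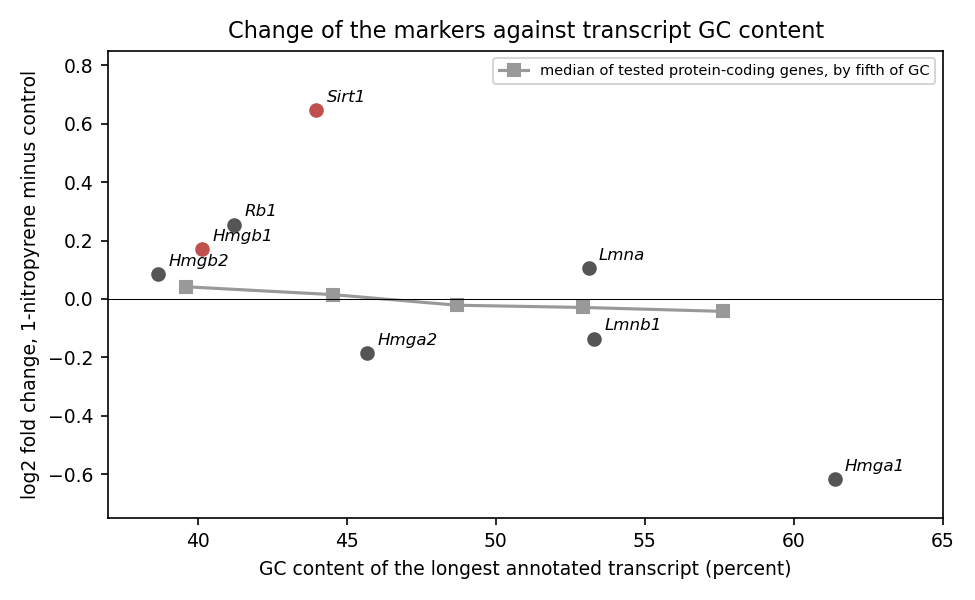
Log2 fold change of the 8 tested markers against the GC content of their longest annotated transcript (percent), red where called, with the median of tested protein-coding genes in each of 5 GC classes as grey squares. The medians run from 0.04 to -0.04, and Sirt1 at 0.65 and Hmga1 at -0.62 lie farthest from them.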

How the data were processed

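Polyadenylated RNA of 4 libraries was measured, with a library kit that keeps strand, per the labels' protocols. The table the authors deposited holds raw gene counts. DESeq2, featureCounts 1.6.3 and HISAT2 2.1.0 appear, with build GRCm38 and without roles, in the submitters' processing notes. For annotation release, strand setting and reads with several matches, the sources used here give nothing.

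Of 53465 identifiers 53360 were matched to GENCODE M21 (GRCm38). Counts were filtered with filterByExpr (7738 genes), scaled with TMM factors (0.989 to 1.01) and fitted with edgeR 4.0.16 (glmQLFit with legacy set to FALSE, glmQLFTest, two-sided) in R 4.3.3, with treatment as the only term. The dispersion was 0.000546 for all genes, and the prior degrees of freedom were infinite. The spread used for a gene was thus the one shared by genes of like abundance, and its own replicate spread did not enter its p. SE was taken as |log2 fold change| over the root of the F statistic. Counts of the libraries within a group were not copies of each other. The chi-square statistic per degree of freedom was 1.62 between controls and 2.05 between treated libraries. Such values cannot tell separate cultures from repeat preparations of the same culture.

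Near-identical loci were found with BLAST 2.17.0. Promoters are RefSeq's (GRCm38.p6), and 8 of the 10 genes matched. The 10 genes, the lists and the rule for named genes (up to 3 called members of a list with the smallest p, or the member with the smallest p, and the 3 genes most like Sirt1) were chosen with earlier results of these data known. Alternatives were other scaling factors and filters, DESeq2 1.42.0, limma-voom (limma 3.58.1), older and robust quasi-likelihood fits, a stricter threshold, other gene sets, each library left out, and, after seeing the data, copies summed into the gene. On simulated data for this comparison (7738 genes, 200 changed), 71% of genes changed 1.5-fold were recovered, and 4.41% of calls were unchanged genes. The data themselves gave 1894 calls, more than the genes changed in the simulation, so these rates need not hold for them.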

Additional observations from a re-analysis of the deposited data

How the results depend on the processing

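Sirt1 and Hmgb1 were called higher, with the same direction, in all 18 alternatives. Members called lower numbered 0 in the main analysis and 1 in 3 settings: at a mean of at least 10 CPM and with no scaling factors (Hmga2 in both), and with copies summed into the gene (Hmgb2, whose log2 fold change turned from 0.08 to -0.28). By construction, that turn comes from the added counts of its copies. With 1 library left out, 2 to 3 members were called higher and 0 lower, the third being Rb1 without 1-nitropyrene replicate 3. Among the named context genes, the calls of Nadk, Hic1, Tmpo, Fnta, Hmgn3, Cbx5, Atrx, Ccna2 and Top2a ended with no filter on low counts (adjusted p-values of 0.0522 to 0.128).

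Over all genes 1024 were higher and 870 lower. DESeq2 called 514 and 316, no filter on low counts left 532 lower, and an adjusted p under 0.01 left 568 lower. With 1 library left out, counts ran from 690 to 861 higher and from 511 to 647 lower, the fewest without control replicate 1 (the lone library of a group is then assumed to vary like the other group). No scaling alternative moved the median of all genes by over 0.1. Without scaling factors the calls of Tmpo (adjusted p = 0.0519), Atrx (0.0611) and Top2a (0.154) ended. No paired analysis was possible because the groups share only replicate number 2. Few or no counts limit Glb1, Lmnb2 and Hmga1: by counting error alone, a count of 0 allows 0.278 to 0.434 CPM.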

Other observations

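Of 69 Hmgb1 copies with a measured value, 14 had enough counts to be tested, with 3 higher, 1 lower and 10 not called, at log2 fold changes between -0.87 and 0.45. These counts stand beside 24.5% called among all tested genes, 13.2% higher and 11.2% lower. The processed pseudogenes Gm5518, Gm15387 and Hmgb1-ps5 were higher (log2 fold changes of 0.45, 0.31 and 0.22), as was Hmgb1 itself. The transcribed copy Gm18194 was lower, from 60 and 50 counts in the controls to 34 and 24 in the treated libraries (log2 fold change -0.87, adjusted p = 0.0145, edgeR). These names were chosen after their values were seen.

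Among 4697 other tested genes averaging 10 CPM or more, those whose centred log2 CPM lay nearest to that of Sirt1 over the 4 libraries were Egln2, a prolyl hydroxylase of the oxygen-sensing pathway, the pseudogene Gm6392 and the homeobox gene Hoxa5 (Euclidean distances of 0.0456, 0.0508 and 0.0643). Egln2 was at 16.7 and 18 CPM without and at 27.8 and 27.8 CPM with 1-nitropyrene, and Hoxa5 40.1, 45.2, 63.1 and 65.6 CPM in the same order. With 4 libraries, likeness of this kind is a description of size and direction only.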
